A study of Mus musculus with 2 samples.

Results

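Heat shock proteins and DnaJ chaperones are the genes that keep other proteins folded. They were taken as every gene whose symbol begins with Hsp and a class letter or digit, or with Dnaja, Dnajb or Dnajc and a number, and which has a protein-coding transcript. This gave 75 genes out of 55536 mouse genes in the gene table, of which 21901 have a protein-coding transcript. The symbol rule also took in Hspbp1, a nucleotide exchange factor for Hsp70, and 3 genes that do not encode chaperones: Hspg2 (the matrix proteoglycan perlecan), Hspb11 (a part of the intraflagellar transport machinery) and Hspbap1 (a protein that binds a small heat shock protein).

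The cells were macrophages grown in culture from the bone marrow of C57BL/6J mice, with no engineered allele in the labels and no recorded age. All of them had been stimulated for 120 minutes at 100 ng/ml, and their polyadenylated RNA was sequenced in 2 libraries, biological replicates 1 and 2, which form the only group. The labels name the stimulus in 2 ways, as lipid A (the lipopolysaccharide anchor sensed by Tlr4) and as lipoprotein A, and they give both libraries 1 donor record, so it is not known whether the replicates came from separate animals. Unstimulated cells were not analysed here: every value is a level in stimulated cells, and no value is a response.

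The gene tables held 33272581 and 50266403 estimated counts for mouse genes in replicates 1 and 2, and a count of 0 allows a level of up to 0.0902 and 0.0597 CPM (3 counts, after division by library size), for counting error only. Levels are in TPM, an abundance per transcript length and library size, and ± marks the SD of 2 libraries. All 5 macrophage markers checked (Adgre1, Csf1r, Lyz2, Cd68 and Itgam) were abundant, whereas markers of T cells (0 of 3), B cells (0 of 3), erythroid cells (0 of 3) and stromal cells (0 of 4) did not reach 1 TPM in both libraries. Granulocyte markers reached it in 4 of 7 cases and summed to 517 TPM in replicate 1 and 67.2 TPM in replicate 2.

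Hsp70 proteins hold exposed stretches of unfolded proteins and release them in a cycle driven by ATP; J proteins, the DnaJ family, bring clients to Hsp70 and start that cycle. Hsp110 proteins exchange the nucleotide, Hsp90 proteins finish the folding of kinases, receptors and transcription factors, and the mitochondrial chaperonin encloses a protein in a chamber while it folds. Some members are constitutive, whereas the heat-inducible ones are switched on by the factor Hsf1 at heat shock elements, and the endoplasmic reticulum (ER) members by the unfolded protein response. In macrophages the ER chaperone Hsp90b1 (gp96) is known for folding Toll-like receptors.

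The sequences upstream of a few members are printed first because they hold elements known from heat shock and ER stress regulation. RefSeq windows of GRCm38.p6, from 250 bases before to 50 after each annotated start, were found for 61 of the 75 genes. The 250 bases before the heat-inducible Hsp70 genes Hspa1a (chr17:34972157-34972406, minus strand) and Hspa1b (chr17:34959239-34959488, minus strand) and before the small heat shock gene Hspb1 (chr5:135887669-135887918, plus strand) are written 5′ to 3′, with each GAANNTTC, a heat shock element of 2 units, in capitals.
Hspa1a: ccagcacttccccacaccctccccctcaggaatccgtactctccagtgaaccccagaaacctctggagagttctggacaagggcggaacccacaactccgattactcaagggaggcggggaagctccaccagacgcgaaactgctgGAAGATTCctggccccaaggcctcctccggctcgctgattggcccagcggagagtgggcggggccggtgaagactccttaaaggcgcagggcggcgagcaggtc
Hspa1b: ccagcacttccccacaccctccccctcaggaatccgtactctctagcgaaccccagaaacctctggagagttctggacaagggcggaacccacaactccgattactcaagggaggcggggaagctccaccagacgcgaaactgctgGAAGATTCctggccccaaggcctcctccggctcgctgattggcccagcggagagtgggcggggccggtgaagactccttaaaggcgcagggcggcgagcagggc
Hspb1: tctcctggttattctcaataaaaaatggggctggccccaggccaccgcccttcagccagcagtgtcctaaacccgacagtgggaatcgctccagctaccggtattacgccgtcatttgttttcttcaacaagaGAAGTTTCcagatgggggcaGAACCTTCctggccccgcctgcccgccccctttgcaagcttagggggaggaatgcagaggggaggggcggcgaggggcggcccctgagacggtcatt

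The upstream windows of Hspa1a and Hspa1b were identical at 247 of 250 bases, and in both the element began 104 bases before the start. In Hspb1 elements began 117 and 97 bases before it. Some genes have several windows, 1 for each annotated start. Read on both strands, 16 of 78 member windows (20.5%) held GAANNTTC, against 7.86% of all 32851 RefSeq promoter windows. By gene this was 14 of 61 members (23.0%), against 9.04% of all 27025 genes with a window. They were Dnaja1, Dnaja4, Dnajb6, Dnajc27, Dnajc5g, Hspa1a, Hspa1b, Hspb1, Hspb3, Hspb6, Hspb8, Hspd1, Hspe1 and Hsph1. In a longer form any 2 bases and another GAA follow, so it contains the shorter one. It was in 6 of 78 member windows (7.69%), those of Dnajb6, Hspd1, Hspe1 and Hsph1, against 0.603% of all windows. By gene this was 4 of 61 members (6.56%), against 0.662% of all genes with a window. Overlapping windows of Dnajb6 held the same match, as did those of Hsph1, where it began after the start. In Hspd1 and Hspe1 the longer form is a shared stretch, since the windows of these genes overlap on opposite strands. The genes lie head to head (chr1:55077835-55088243, minus strand, and chr1:55088132-55091307, plus strand) with 112 bases in common, and the shared stretch lies outside those bases. The window of the heat-inducible Dnajb1 did not hold GAANNTTC, and a match or its absence describes only these letters in this window.

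Another element was found in 3 of the 12 ER members with a window. The ER stress response element, searched on both strands as CCAAT, any 9 bases and CCACG, was in 3 of 78 member windows (3.85%), those of Hspa5, Hsp90b1 and Dnajc3, against 39 of all 32851 windows (0.119%). In Hspa5 the match was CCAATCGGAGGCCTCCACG, which began 65 bases before the start. The stretch before Hsp90b1 (chr10:86705510-86705694, minus strand, without bases that belong to an exon) and that before Dnajc3 (chr14:118937682-118937931, plus strand) follow, with the element in capitals.
Hsp90b1: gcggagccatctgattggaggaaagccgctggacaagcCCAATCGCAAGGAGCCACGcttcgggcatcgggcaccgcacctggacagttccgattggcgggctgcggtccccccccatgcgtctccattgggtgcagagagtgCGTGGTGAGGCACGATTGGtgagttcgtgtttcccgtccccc
Dnajc3: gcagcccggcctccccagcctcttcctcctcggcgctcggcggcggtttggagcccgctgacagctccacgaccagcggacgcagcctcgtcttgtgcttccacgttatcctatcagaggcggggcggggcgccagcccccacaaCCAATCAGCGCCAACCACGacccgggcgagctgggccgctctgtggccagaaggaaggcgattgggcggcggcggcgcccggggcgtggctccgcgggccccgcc

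Hsp90b1 held the element on both strands, 212 and 107 bases before the start, and Dnajc3 held it 105 bases before. No binding or promoter activity was measured, so the levels below are set beside these sequences without a link between them.

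Chaperone transcripts were common in these macrophages, and a few constitutive and ER members made up most of them. Of the 75 members 56 reached 1 TPM in both libraries, which is called detected here, against 43.8% of all 21901 genes with a protein-coding transcript. Detected members had a median of 19.3 TPM, against 15.4 TPM over all 9590 detected coding genes; 38 of them stood at 10 TPM or more and 9 at 100 TPM or more. The members summed to 4737 TPM in replicate 1 and 4565 TPM in replicate 2. Hspa8, Hspa5, Hsp90ab1, Hsp90b1 and Dnaja1 together held 65.2% and 65.4% of these sums. In bulk RNA, fewer cells with a transcript and less of it in each cell cannot be told apart.

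By class the Hsp70 genes led, with 8 of 11 detected and sums of 2229.7 and 2301 TPM in replicates 1 and 2. J proteins were the most numerous class, with 36 of 45 detected, and summed to 1177 and 1208 TPM. The 3 Hsp90 genes were all detected and summed to 982 and 747 TPM. Both chaperonin genes (216 and 196 TPM) and all 3 Hsp110 genes (91.8 and 79.1 TPM) were detected too. Small heat shock proteins were the sparse class: 1 of 7 was detected, and all 7 summed to 2.90 and 2.19 TPM.

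**Figure D1:**
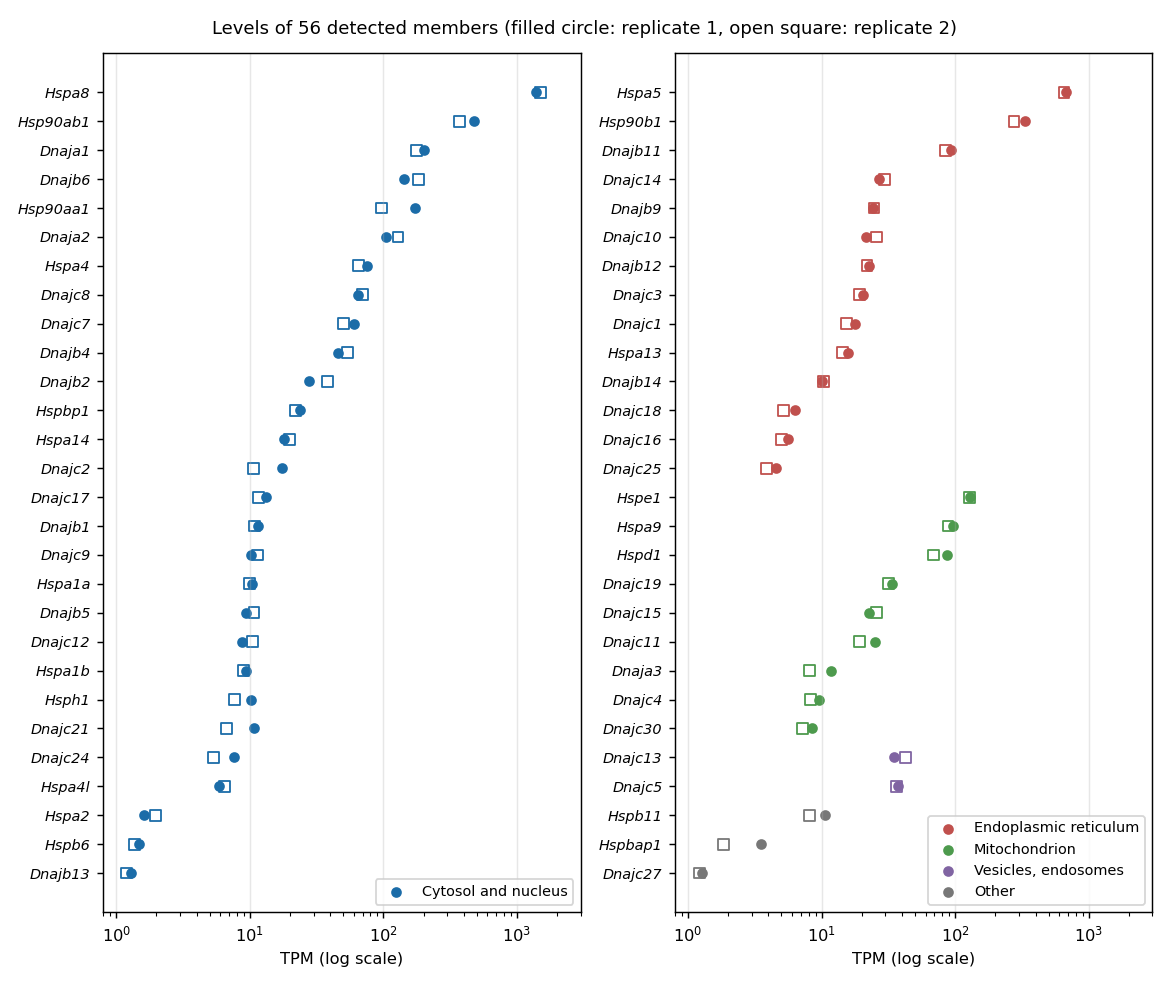
Level of each of the 56 detected members in TPM on a log axis, with a filled circle for replicate 1 and an open square for replicate 2. Cytosolic and nuclear members are on the left and those of the ER, the mitochondrion, vesicles and other places on the right, each ordered by mean level; Hspa8 (1453 TPM) and Hspa5 (664 TPM) lead.

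The cytosol and nucleus held the largest share of chaperone RNA. Their 39 members, 28 of them detected, summed to 2949.7 and 2901 TPM in replicates 1 and 2, which is 62.3% and 63.6% of all members. The ER followed with 15 members, 14 of them detected, at 1277 and 1188 TPM (26.95% and 26.02%). The mitochondrion had 10 members, 9 of them detected, at 423 and 385 TPM (8.94% and 8.43%). Vesicles and endosomes (2 of 5 detected) had 72.0 and 79.3 TPM, and the 6 members placed elsewhere or in no compartment had 15.4 and 11.6 TPM. This order of the compartments was the same in both libraries, and neighbours in it lay further apart than the SD of the 2 libraries, as in 2925 ± 34.3 TPM for the cytosol, 1232 ± 62.9 TPM for the ER and 404 ± 27.3 TPM for the mitochondrion (SD, n = 2). Compartments were assigned from general knowledge of each protein, and some members work in more than 1.

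In the cytosol Hspa8, the constitutive Hsp70 that also strips clathrin from vesicles, was at 1402 and 1504 TPM in replicates 1 and 2, or 1453 ± 72.7 TPM (SD, n = 2). It held 29.6% and 33.0% of all member TPM and ranked 76 among coding genes. The gene lies at chr9:40800984-40810087 on the plus strand (mm10). Hsp90ab1, the constitutive Hsp90 that folds kinases and steroid receptors, was at 477 and 374 TPM, or 425 ± 72.6 TPM (SD, n = 2). Hspa8 was thus the most abundant member in each library, and Hsp90ab1 the next in the cytosol.

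Among cytosolic J proteins, Dnaja1, a general partner of Hspa8, was at 200.4 and 178 TPM, or 189 ± 15.8 TPM (SD, n = 2). Dnajb6, which keeps aggregation-prone proteins soluble, was at 144 and 184 TPM, or 164 ± 28.0 TPM. Dnaja2, another general Hsp70 partner, was at 105 and 129 TPM, or 117 ± 16.4 TPM. The ranges of Dnaja1 and Dnajb6 overlapped, while Dnaja2 was below both in each library. Dnajc8, which is found with the splicing machinery, followed at 64.5 and 69.8 TPM. Dnajc7, which binds both Hsp70 and Hsp90, had 60.8 and 50.3 TPM, and Dnajb4, a relative of Dnajb1, had 45.9 and 54.2 TPM.

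In the ER, Hspa5 (BiP), the Hsp70 of that organelle and a sensor partner of the unfolded protein response, was at 676 and 652 TPM, or 664 ± 16.8 TPM (SD, n = 2), and ranked 184 among coding genes. It lies at chr2:34771970-34777547 on the plus strand (mm10). Hsp90b1 was at 332 and 276 TPM, or 304 ± 39.7 TPM. Dnajb11, a soluble J protein partner of Hspa5, was at 92.9 and 84.7 TPM, or 88.8 ± 5.77 TPM. These 3 were followed after a gap by Dnajc14, a membrane J protein, at 26.98 and 29.37 TPM. Dnajb9, which restrains the stress sensor Ire1, was at 24.3 and 24.7 TPM, the disulfide reductase gene Dnajc10 at 21.7 and 25.6 TPM, and Dnajc3, a J protein of the ER lumen, at 20.3 and 19.3 TPM. The range of Dnajc10 took in both values of Dnajb9, while Dnajc3 was below both genes in each library. Dnajc22 was the undetected ER member, with 0 counts in both libraries.

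In mitochondria, Hspe1, the lid of the chaperonin chamber, was at 129.7 and 127 TPM, or 129 ± 1.68 TPM (SD, n = 2). Hspa9 (mortalin), the Hsp70 that pulls proteins into the matrix, was at 95.9 and 88.3 TPM, or 92.1 ± 5.35 TPM. Hspd1, the barrel of the chamber, was at 86.5 and 68.8 TPM, or 77.6 ± 12.5 TPM. The lid gene was thus above the barrel gene in both libraries, and the ranges of Hspa9 and Hspd1 did not overlap. Dnajc19, counterpart of a yeast protein that activates the matrix Hsp70 at the import pore, was next at 33.9 and 31.6 TPM. Dnajc15, a related inner membrane J protein, had 22.6 and 25.9 TPM, and Dnaja3, the matrix J protein, had 11.7 and 8.14 TPM. Dnajc28 was the undetected mitochondrial member, with 10 and 25 counts.

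On vesicles and endosomes, Dnajc13, which works in sorting at endosomes, was at 34.95 and 42.64 TPM, or 38.8 ± 5.44 TPM (SD, n = 2). Dnajc5, the cysteine string protein of secretory vesicles, was at 37.1 and 36.6 TPM, or 36.8 ± 0.318 TPM. Their ranges overlapped. Dnajc6 (auxilin), which uncoats clathrin vesicles in neurons, had 0 and 3 counts. Its widely expressed relative Gak, whose symbol is outside the rule, had 62.4 and 60.8 TPM.

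The 19 undetected members include several known from other tissues, such as Dnajb8 from testis and Hspb2, Hspb3 and Hspb7 from muscle. Of them 7 had 0 counts in both libraries: Dnajb8, Dnajc22, Dnajc5b, Dnajc5g, Hspb2, Hspb3 and Hspb8. Hspb1 (Hsp25), a small heat shock protein that holds unfolding proteins, had 4 and 6 counts, which is 0.29 TPM in each library. Hspb6, also of that class, was detected, at 1.48 and 1.37 TPM. The endothelial Hsp70 relative Hspa12b had 2 and 13 counts, and the perlecan gene Hspg2 had 14 and 30 counts. Hspa1l, a testis Hsp70 next to Hspa1a on chromosome 17, had 0.92 and 0.45 TPM.

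Heat-inducible members were set against constitutive counterparts within each library, so that depth and scaling cancel. In the pairs chosen here the inducible member was the lower one, and its share was smallest for the cytosolic Hsp70 genes. Hspa1a and Hspa1b, the heat-inducible Hsp70 genes, summed to 19.6 and 18.9 TPM in replicates 1 and 2, against 1402 and 1504 TPM for the constitutive Hspa8. The inducible genes thus stood at 1.401% and 1.258% of Hspa8, or 1.33% ± 0.101 (SD, n = 2). Their sum rests on 1154 and 1639 counts. Hspa1a took 52.6% and 52.9% of the sum. The 2 genes share 99.2% of bases over 2201 bases of transcript, so how the sum is divided between them is uncertain.

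Hsp90aa1, the inducible cytosolic Hsp90, was the exception in level. It had 173 and 97.1 TPM, against 477 and 374 TPM for the constitutive Hsp90ab1, which is 36.4% and 26.0%, or 31.2% ± 7.36 (SD, n = 2). The inducible Hsp110 gene Hsph1 had 10.3 and 7.66 TPM, against 75.7 and 65.0 TPM for the constitutive Hspa4, which is 13.6% and 11.8%, or 12.7% ± 1.27. Dnajb1, the inducible J protein (Hsp40), had 11.4 and 10.8 TPM, against 105 and 129 TPM for the constitutive Dnaja2, which is 10.8% and 8.38%, or 9.61% ± 1.74. In each pair the inducible member was lower than the constitutive one in both libraries. This holds for the pairs chosen here only. Dnaja1, which heat also induces, is in no pair and was above Dnaja2 in both libraries (200.4 and 178 against 105 and 129 TPM). Across pairs the levels overlapped, since Hsp90aa1 was above Hspa4 in both libraries.

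As lists, the 6 inducible members (Hspa1a, Hspa1b, Hsp90aa1, Hsph1, Dnajb1 and Hspb1) had a median of 9.64 TPM, and the 5 constitutive ones (Hspa8, Hsp90ab1, Hspa4, Dnaja2 and Dnajc7) had a median of 117 TPM. The inducible means ran from 0.29 TPM for Hspb1 to 135 TPM for Hsp90aa1, against 55.6 TPM for Dnajc7 to 1453 TPM for Hspa8 among constitutive ones. The lists summed to 215 against 2120.0 TPM in replicate 1 and to 135 against 2122 TPM in replicate 2. The inducible list was 8.25% ± 2.68 of the constitutive one (SD, n = 2), and 1.87% without Hsp90aa1, an alternative chosen after seeing the data. The value thus rests on that gene; other members that heat also induces are in neither list, and with Dnaja1, Dnajb4, Hspd1 and Hspe1 added it was 29.2%. No test was made of these differences, which rest on 2 libraries of 1 group.

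**Figure D2:**
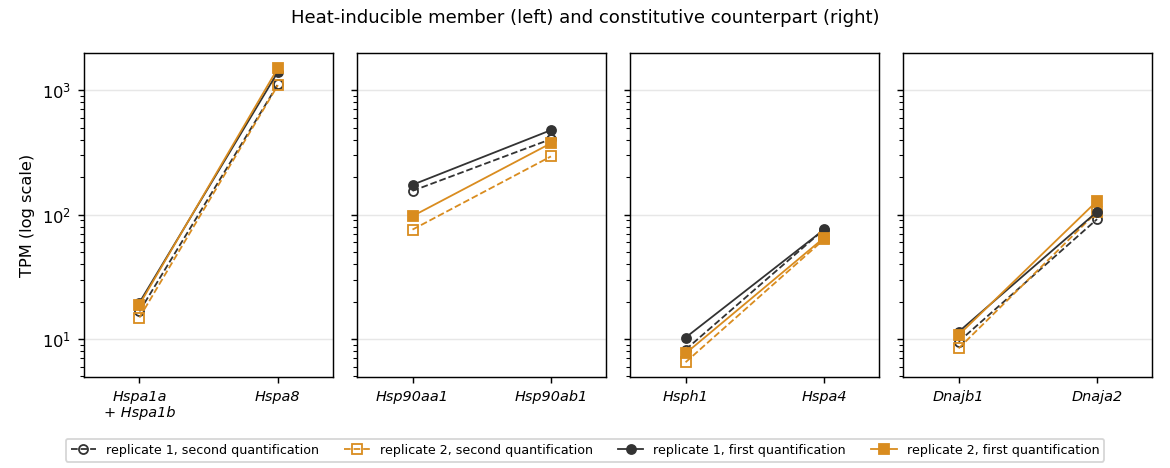
TPM on a log axis of each heat-inducible member (left) and its constitutive counterpart (right), joined by a line for each replicate and each of the authors' quantifications. All lines rise to the right, most steeply for the Hsp70 genes, where the inducible sum was 1.401% and 1.258% of Hspa8 in replicates 1 and 2 of the first quantification.

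Each member was also compared between the 2 libraries. The ratio of replicate 1 over replicate 2 was taken on CPM scaled by TMM, a normalisation that assumes most genes equal, for the 54 members with a mean count of 50 or more. None of the 54 was 2-fold or more apart, against 3.96% of 10445 genes with such counts (2.23% higher and 1.73% lower in replicate 1). That share is small, so 0 of 54 does not set the members apart from other genes. With a minimum mean count of 200 instead, 0 of 47 members and 2.23% of 8342 genes were 2-fold or more apart. The members had a median absolute log2 ratio of 0.18, against 0.24 over all genes. With 1 library on each side this has no replicate check. On this scale 22 members were higher and 32 lower in replicate 1, against 48.8% of all genes higher, and the median log2 ratio was -0.06 against -0.01 for all genes. On log2(TPM + 1) the majority turned round, with 36 of 54 higher and a median of 0.09, which was also the median of all genes. No direction common to the members is therefore given.

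Hsp90aa1 was furthest apart, with a log2 ratio of 0.82 (95% counting interval 0.78 to 0.86). It was higher in replicate 1 under every scaling tried, from 0.80 in the second quantification to 0.84 on log2(TPM + 0.1). Dnajc21, which takes part in ribosome assembly, had 10.8 and 6.66 TPM and a log2 ratio of 0.61. These were the 2 members 1.5-fold or more apart, against 14.6% of all genes. Dnajc2, a J protein of the ribosome, came close at 17.5 and 10.6 TPM, with a log2 ratio of 0.58. At the other end Dnajb6 had -0.49, Hspa8 -0.21 and Hspa5 -0.12, although Hspa5 was slightly higher in replicate 1 on the TPM scale (676 and 652 TPM). Granulocyte marker RNA was higher in replicate 1, and so was the mitochondrially encoded share of TPM (7.12% and 5.64%). Genes annotated as nuclear rRNA, together with Gm26917, Gm42418 and AY036118, which were added by symbol, took 6.82% and 10.53% of TPM. The part of these differences in the member ratios was not tested.

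**Figure D3:**
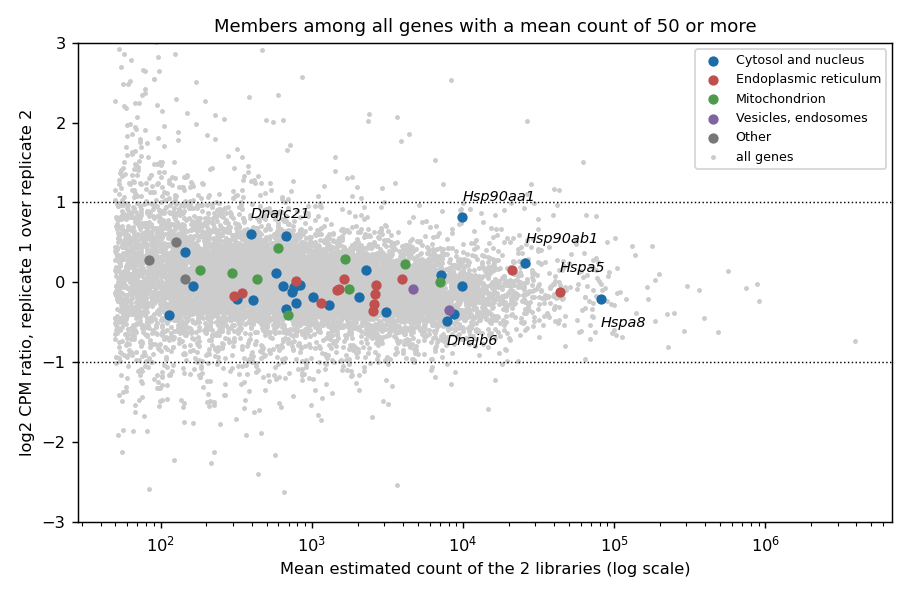
Ratio of replicate 1 over replicate 2 (log2 of TMM-scaled CPM) against the mean estimated count on a log axis, for members in colour by compartment and for all 10445 genes whose mean count was at least 50 in grey. Dotted lines mark 2-fold; no member lies beyond them, Hsp90aa1 at 0.82 is the nearest, and 16 grey genes fall beyond the axis limit of 3.

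The authors deposited a second quantification of the same reads, made with an index instead of an alignment per the deposited descriptions. Its gene levels were set against those of the first. None of the 56 detected members was 1.5-fold or more higher in both libraries or lower in both, against 0.542% of 9590 detected coding genes higher and 1.77% lower. These shares are small, so 0 of 56 does not set the members apart from other genes. The median log2 ratio of the second over the first quantification was -0.17 and -0.30 for members in replicates 1 and 2, the same as for all genes. The members ranged between Dnajc17, which acts in splicing, at -0.52 and -0.62 and Dnajc14 at 0.17 and 0.11. Hspa8 was at 1112 and 1095 TPM in the second quantification, against 1402 and 1504 TPM in the first, with log2 ratios of -0.33 and -0.46 that lie below the median of all genes. The inducible sum of Hspa1a and Hspa1b was 1.43% ± 0.0995 of Hspa8 in the second quantification, against 1.33% ± 0.101 in the first (SD, n = 2), which is within the SD.

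Transcripts of the same gene were less settled between quantifications than gene totals. For 27 members at 20 TPM or more with several annotated transcripts, the leading transcript held a median of 88.2% of gene TPM, against 82.1% over all 3889 such genes. In 13 members it held over 90% (40.0% of all genes) and in 5 members under 50% (16.0% of all genes). Those 5 were Dnaja1, Dnajb2, Dnajb12, Dnajc5 and Hspbp1. In Dnajb2, a J protein that passes clients to the proteasome, Dnajb2-207 held 43.5% in replicate 1 and 22.4% in replicate 2. Dnajc5-201 held 40.7% and 41.4%, Dnajb12-204 held 44.0% and 41.0%, Dnaja1-201 held 46.5% and 52.4%, and Hspbp1-201 held 51.7% and 42.2%. Dnajb2 was the one in which the libraries lay furthest apart.

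The leader differed between quantifications in 5 of the 27 members, Dnaja1, Dnajb2, Dnajb12, Dnajc5 and Hsp90aa1, against 8.23% of all genes. For Hsp90aa1 the longer transcript, Hsp90aa1-202 of 3281 bases, held 35.1% and 46.2% of gene TPM in the second quantification, against 81.6% and 85.4% in the first. The shorter Hsp90aa1-201, of 2852 bases, held 64.7% and 51.2%, against 15.04% and 2.95% in the first. Which of them prevailed therefore depends on the quantification. The gene total was 155 and 75.7 TPM in the second quantification, against 173 and 97.1 TPM in the first. In Hspa8 the leader was the same, Hspa8-201 of 2394 bases, but it held 98.1% and 99.3% in the second quantification, against 68.8% and 68.4% in the first. In Dnajc15 the leader was annotated as a target of nonsense-mediated decay, the pathway that degrades messages with an early stop codon: Dnajc15-201 held 81.3% and 81.2%, and 81.1% and 82.2% in the second quantification. In the first quantification this was the 1 member of 27 whose leader was not protein coding, against 5.35% of all genes. In the second quantification the leader of Dnajc5 was such a decay target too, Dnajc5-204, with 45.7% and 42.5%.

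**Figure D4:**
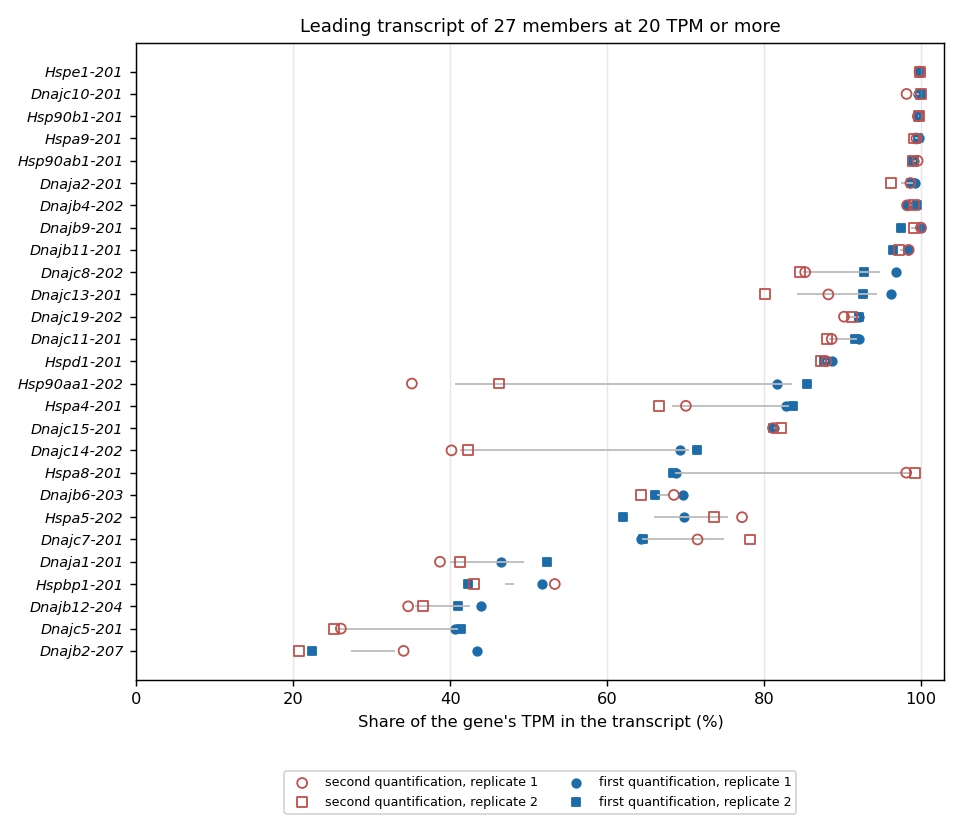
Share of gene TPM held by the leading transcript of the first quantification, for 27 members at 20 TPM or more, in the second (open red) and the first quantification (filled blue), with circles for replicate 1, squares for replicate 2 and a grey line between the means of the quantifications. Hsp90aa1-202 and Hspa8-201 are among those with long lines; Hsp90aa1-202 had 35.1% and 46.2% in the second quantification and 81.6% and 85.4% in the first.

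Several abundant members have near-identical copies elsewhere in the genome, with at least 90% identity over at least 300 bases of transcript. Hspa8 has 13, nearly all of them processed pseudogenes, and together they held 810 and 1075 counts in replicates 1 and 2, or 1.29% and 1.08% of the Hspa8 count. Most of these counts, 654 and 737, were in Gm26825, which is annotated as a long noncoding RNA and not as a pseudogene. In the second quantification the 13 copies held 55.6 and 189 counts, so this small share depends on how reads were divided. Copies of Hsp90aa1 held 0.471% and 0.588% of its count, those of Dnaja1 1.65% and 1.34%, and those of Dnajb6 1.498% and 1.851%. Of the 56 detected members 4 had a leading transcript of 1 exon, Hspa1a, Hspa1b, Hspa2 (a testis Hsp70, 1.60 and 1.96 TPM) and Dnajc30 (a mitochondrial J protein, 8.43 and 7.21 TPM), against 2.05% of all detected coding genes. Hspa1a, Hspa1b and the testis gene Hspa1l form a cluster on chromosome 17, at chr17:34969190-34972156, chr17:34956436-34959238 and chr17:34972703-34979285.

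Other genes of the same machinery, from lists outside the symbol rule, were counted in the same way. Of 5 genes for heat shock factors and their regulator 4 were detected, led by the Hsf1-binding protein gene Hsbp1 (126 and 119 TPM) and Hsf1 (11.2 and 8.83 TPM). Of 19 Hsp70 and Hsp90 cochaperones 18 were detected, led by Ahsa1 (180 and 171 TPM), which speeds the Hsp90 cycle, and Bag1 (121 and 130 TPM), a nucleotide exchange factor. All 14 genes of the cytosolic chaperonin CCT and its partner prefoldin were detected, led by Pfdn5 (197 and 239 TPM) and Cct2 (122 and 107 TPM). All 12 other ER chaperones were detected, led by the lectin chaperones Calr (1033 and 697 TPM) and Canx (269 and 253 TPM), so Calr exceeded Hspa5 in each library. All 8 mitochondrial chaperones and proteases were detected, led by the mitochondrial Hsp90 gene Trap1 (37.8 and 27.1 TPM) and Hscb (13.3 and 23.9 TPM), a J protein of iron-sulfur cluster assembly. Of these 5 lists 4, 18, 14, 12 and 8 genes, in the order given, had a mean count of at least 50. None of them was 2-fold or more apart between libraries, against 3.96% of all 10445 genes with such counts. That share is small, so a count of 0 does not set these lists apart from other genes. Hscb came close, with a log2 ratio of -0.94 (146 and 382 counts).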

How the data were processed

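RNA-seq tables of 2 libraries of 1 group were analysed. Per the file headers, the authors deposited a gene table and a transcript table with expected counts, TPM and the percent of gene TPM in each transcript under RSEM column names, and a transcript table with estimated counts and TPM under kallisto column names. The signal bounds of the authors' TPM credibility intervals, per the file headers, were not printed. Assembly mm10 and GENCODE M21 were used, per the deposited descriptions. Program versions and strand use are not given in the sources used here. Entries that are not mouse genes (0.141% and 0.134% of counts) were left out.

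Expected counts were rounded for TMM and the common dispersion in edgeR 4.0.16 (R 4.3.3), for genes with at least 10 counts in each library. The biological coefficient of variation was 21.5% over 12178 genes. On simulated libraries of these genes 194 of 200 genes changed 4-fold passed 2-fold, and 3.3% of unchanged genes passed 2-fold. TPM and counts of the other transcript table were added up within genes. Counting intervals are exact Clopper-Pearson intervals at 95% and cover counting error only, because no molecular identifiers separate PCR copies. Near copies were found with BLAST+ 2.17.0, and Python 3.11.15 with pandas 2.3.3, scipy 1.17.1 and matplotlib 3.10.9 did the rest. Promoter windows were those of RefSeq on GRCm38.p6, matched by symbol.

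The members, their compartments, the inducible and constitutive lists and the other lists were chosen with earlier results of these data known. Any member could be named; those given in full are Hspa8, Hspa5, the 4 highest of each compartment, the inducible and constitutive pairs, members called, the 5 with the lowest leading share, and the 2 highest of each other list. No comparison between conditions was made, because the labels give 1 group, and the replicate spread may be technical.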

Additional observations from a re-analysis of the deposited data

How the results depend on the processing

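No paired analysis was possible because the labels give 1 group. Summed TPM by compartment moved by more than the replicate SD with the quantification or the genes in the TPM total, and the order of the compartments is the same in these values. In the second quantification the sums were 2362 TPM for the cytosol and nucleus, 1073 TPM for the ER, 327 TPM for the mitochondrion and 69.9 TPM for vesicles and endosomes. Without mitochondrially encoded genes in the total they were 3125, 1317 and 432 TPM for the first 3 of these, and with posterior mean TPM the cytosol had 2848 TPM. Hspa8 was at 1103 TPM and Hspa5 at 586 TPM in the second quantification. Hsph1 was 10.6% of Hspa4 in the second quantification and 16.4% with posterior mean TPM. The inducible list was 29.2% of the constitutive one with Dnaja1, Dnajb4, Hspd1 and Hspe1 added, and 1.87% without Hsp90aa1, which, like subtracting the median of all genes between quantifications, was chosen after seeing the data. With a mean count minimum of 10, 1 member (Dnaja4, 12 and 8 counts) was 2-fold or more apart between libraries, against 8.23% of all genes, and with no minimum 7 members were, against 30.3%. These rest on few counts, so depth limits what can be said of the 19 undetected members. Members detected numbered between 49 at 5 TPM and 57 at 0.5 TPM. Either replicate alone kept every value on the same side: Hspa1a and Hspa1b at 1.258% to 1.401% of Hspa8 and Hsp90aa1 at 26.0% to 36.4% of Hsp90ab1. In total 61 comparisons of a main result with a setting changed by less than the replicate SD or by less than 1.5 times. Another 14 changed by more, and some of both are given above. Part of the 61 could not come out otherwise. Leaving out 1 of 2 libraries moves a mean by less than their SD. Leaving out mitochondrially encoded genes cancels in a ratio within a library.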

Other observations

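Some members share exon bases with a gene on the other strand, and since the use of strand in counting is not stated, reads in the shared bases cannot be assigned to either gene with certainty. Dnajb13, known from sperm flagella, had 36 and 52 counts and shares 305 bases with Ucp2, which had 24315 and 27375 counts. Dnaja4 shares 44.1% of its exon bases with Wdr61, Dnajc30 shares 26.2% with Bud23, and Dnajc14 shares 17.0% with Ormdl2. On the same strand, Hspa14, a ribosome-linked Hsp70, had 597.3 and 974.6 counts and shares 7.9% of its exon bases with Gm45902, which had 152 and 256 counts.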
